A study of Mus musculus with 17 samples.

Results

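The 10 genes described here are expressed by neutrophils: S100a8, S100a9, Csf3r, Cxcr2, Retnlg, Mpo, Ngp, Camp, Elane and Ltf. They were chosen by name from the 50600 gene IDs of the count files, whose Ensembl IDs were matched to symbols, and all 10 were found. They were followed through 17 bulk mRNA libraries from C57BL/6J mice. The reference was healthy brain with the genotype label WT, with 3 libraries. The 4 tumor groups carry the genotype label SMARCB1 -/-, a model of rhabdoid tumor. They were 3 CNS tumors labelled SHH and 4 labelled Myc, 4 extracranial tumors, and 3 syngeneic grafts, which are tumor tissue transplanted to the flank of mice of that inbred strain. The allele and the promoter behind the loss of Smarcb1, the ages of the mice, the site of each extracranial tumor and the tumor from which each graft came are not stated in the labels used here. Tumors are called separate tumors and brains biological replicates in the series' own description, and the tests measure the spread between these libraries alone. Grafts of 1 parent tumor would not be independent of each other, and whether these 3 share a parent is unknown here.

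Neutrophils are short-lived white blood cells that are made in the bone marrow and enter inflamed tissue and many tumors. While they mature they make their granules in waves: Mpo (myeloperoxidase) and Elane (neutrophil elastase) are transcribed in early precursors, Ngp, Camp and Ltf at the following stages, and all these transcripts are largely shut off before the cell leaves the marrow. Mature neutrophils in blood and tissue keep transcribing S100a8 and S100a9, the receptors Csf3r and Cxcr2, and Retnlg. In bulk RNA, fewer cells of a type and less RNA per cell cannot be told apart.

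Smarcb1 was measured first as a check of the labels. Levels are given in CPM, counts divided by the library's total and scaled by trimmed mean of M values (TMM). The mean of Smarcb1 was 123.9 ± 6.93 CPM (SD, n = 3) in brain and between 10.45 ± 3.07 (n = 4) in Myc tumors and 29.0 ± 3.35 (n = 3) in grafts, and every tumor lay below every brain. A level of 0 allows up to 3 counts, which is between 0.0238 and 0.164 CPM depending on the library and covers counting error only. Total counts ran from 18685672 in a Myc tumor to 130835711 in a brain, so 1 count was worth more CPM in the shallow tumors. Of the brains, Healthy brain 1 stood apart: its summed CPM of pituitary markers was 1361 against 1.07 and 1.13 in the others, of bone markers 439 against 5.36 and 6.53, and of skeletal muscle markers 202 against 4.83 and 4.89. SHH CNS tumor 1 held 8314 CPM of astrocyte and oligodendrocyte markers against 178 and 274 in its group. For the 10 genes, calls that ended with both of these libraries left out are given with and without them. Neuron markers summed to between 2406 and 2694 CPM in brain and to between 53.4 and 3134 CPM in the tumors.

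S100a8 and S100a9 encode the subunits of calprotectin, an abundant protein complex of the neutrophil cytosol. Both were at the lowest level in SHH tumors and reached their highest levels in Myc and extracranial tumors. S100a8 (ENSMUSG00000056054.9, chr3:90668978-90670035 on the plus strand of GRCm38) measured 2.80, 0.320 and 0.358 CPM in brains 1 to 3, and 0.103, 0.0235 and 0.294 CPM in SHH tumors 1 to 3. The Myc tumors, numbered 1 to 4, measured 1.86, 25.5, 11.6 and 4.90 CPM, the extracranial tumors, also 1 to 4, measured 2.73, 8.99, 15.1 and 0.102 CPM, and grafts 1 to 3 measured 4.14, 4.20 and 8.05 CPM. All Myc tumors and grafts lay above all SHH tumors, whereas Extracranial tumor 4 lay among the SHH tumors and Healthy brain 1 lay above Myc CNS tumor 1 and Extracranial tumor 1.

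S100a9 (ENSMUSG00000056071.12, chr3:90692632-90695721, minus strand) followed the same order of groups. It measured 3.14, 0.631 and 0.596 CPM in the brains, 0, 0.165 and 0.396 CPM in the SHH tumors, 4.43, 30.6, 15.8 and 7.02 CPM in the Myc tumors, 9.56, 15.4, 18.4 and 0.238 CPM in the extracranial tumors and 8.04, 7.20 and 12.3 CPM in the grafts. Every Myc tumor and every graft lay above every brain and every SHH tumor, and Extracranial tumor 4 was again the lowest of its group. Ordered by mean, S100a9 was at 0.187 ± 0.199 CPM (SD, n = 3) in SHH tumors, 1.46 ± 1.46 (n = 3) in brain, 9.17 ± 2.71 (n = 3) in grafts, 10.9 ± 8.01 (n = 4) in extracranial tumors and 14.5 ± 11.8 (n = 4) in Myc tumors. The 3 upper means differed from each other by less than the SD of the Myc group, and the SHH and brain means by less than the SD of the brains.

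Upstream sequence is shown for this pair because the genes lie 22596 bases apart on chromosome 3 and their levels moved together. The stretches below end at the base before the first annotated exon and come from RefSeq promoter windows on GRCm38.p6, written 5′ to 3′ on the strand of the gene. Capitals mark matches to TTNNGNAA, a short form of the site bound by C/EBP factors, or to GAGGAA, the core site of PU.1, on either strand. C/EBP factors and PU.1 are transcription factors of granulocyte development.
S100a8 (chr3:90668821-90668977, plus strand): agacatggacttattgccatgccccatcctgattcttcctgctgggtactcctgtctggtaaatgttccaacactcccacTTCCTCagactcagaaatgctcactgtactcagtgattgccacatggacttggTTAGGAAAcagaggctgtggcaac
S100a9 (chr3:90695722-90695971, minus strand): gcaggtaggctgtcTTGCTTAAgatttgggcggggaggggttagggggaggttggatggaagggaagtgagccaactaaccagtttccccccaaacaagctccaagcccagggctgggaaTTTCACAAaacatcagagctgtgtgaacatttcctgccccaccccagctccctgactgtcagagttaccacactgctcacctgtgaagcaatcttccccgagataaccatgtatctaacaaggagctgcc
The whole 300-base windows were searched for all 10 genes, and no printed matches overlapped. TTNNGNAA was found in 5 of the 10, against 40.7% of 32851 RefSeq promoter windows of this length, and GAGGAA in 6 of the 10, against 28.3%. A match of letters is a description and not a bound site.

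**Figure D1:**
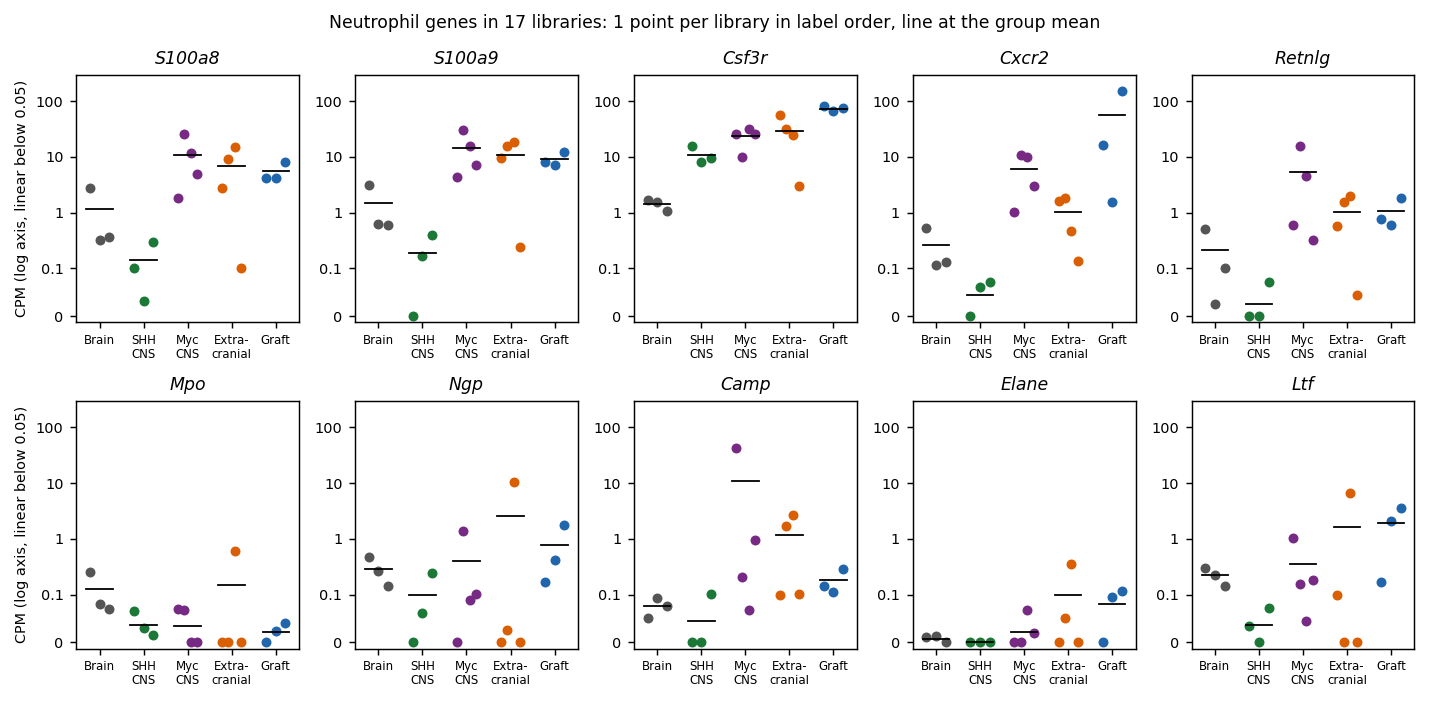
Level of each neutrophil gene in all 17 libraries, with 1 panel per gene, the 5 groups on the horizontal axis, CPM on a logarithmic vertical axis that is linear below 0.05, and a line at each group mean. S100a8 and S100a9 are lowest in SHH tumors, Csf3r is above every brain in all 14 tumors, and Cxcr2, Ngp and Camp each have a library far above the rest of its group.

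In the edgeR quasi-likelihood test over 21494 genes, adjusted by Benjamini-Hochberg, S100a8 was higher in Myc than in SHH tumors by a log2 fold change of 6.20 ± 1.60 (SE), adjusted p = 0.00736. It was higher than in SHH tumors by 5.50 ± 1.54 in extracranial tumors (adjusted p = 0.0124) and by 5.20 ± 1.55 in grafts (adjusted p = 0.0136). For S100a9 the same differences on the log2 scale were 6.19 ± 1.47, 5.79 ± 1.45 and 5.54 ± 1.45, with adjusted p = 0.00474, 0.00661 and 0.00673. The SHH group held only 31 counts of S100a8 and 42 of S100a9 in all, so the size of these folds is imprecise. The extracranial and graft calls of S100a8 ended without SHH CNS tumor 1 (adjusted p = 0.0503 in both) or without SHH CNS tumor 2 (0.0504 and 0.0505). With Healthy brain 1 and SHH CNS tumor 1 both left out, all 6 of these calls held, with adjusted p between 0.0142 and 0.0428. In an edgeR fit of the compared groups only, the extracranial calls ended for S100a8 (5.47, adjusted p = 0.0579) and S100a9 (5.76, 0.056).

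Against brain, S100a9 was higher in Myc tumors by 3.31 ± 1.26 on the log2 scale (adjusted p = 0.0394), and S100a8 missed the threshold at 3.24 ± 1.35 (adjusted p = 0.058). Extracranial tumors and grafts missed it too: S100a9 differed from brain by 2.90 ± 1.23 (adjusted p = 0.0612) and 2.65 ± 1.26 (0.0859), and S100a8 by 2.53 ± 1.31 (0.117) and 2.23 ± 1.34 (0.167). The S100a9 call in Myc tumors ended without Healthy brain 2 (0.126), Healthy brain 3 (0.128), Myc CNS tumor 2 (0.0906) or Myc CNS tumor 3 (0.0585). Healthy brain 1 held the highest brain level of both genes, beside its pituitary, bone and muscle transcripts. Its 7 erythroid markers, a sign of blood, also summed highest, to 750.1 CPM against 408.1 and 192.4 in the other brains and 6.56 to 75.9 CPM in SHH tumors. The part of these transcripts in the result was not tested. Without that library and SHH CNS tumor 1, S100a9 was higher than in brain in Myc tumors (4.54, adjusted p = 0.0181), extracranial tumors (4.14, 0.0253) and grafts (3.89, 0.0308), and S100a8 in Myc tumors (5.0, 0.0331). In SHH tumors both genes lay below every brain, by 2.97 ± 1.41 for S100a8 and 2.89 ± 1.30 for S100a9 on the log2 scale, and neither passed (adjusted p = 0.237 and 0.211). Leaving out Healthy brain 1 and SHH CNS tumor 1 moved these log2 values to -1.02 (0.771) and -1.11 (0.688).

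The calprotectin genes kept a narrow ratio across libraries. On the scale of CPM per kilobase of exon, the level of S100a9 was between 1.49 and 4.65 times that of S100a8 in the 14 libraries with at least 10 counts of each, with a median of 2.12. The widest ratio, 4.65, came from Extracranial tumor 1, which held 56 counts of S100a8. Over the same kind of libraries the ratio of Cxcr2 to S100a9 ran from 0.00443 to 2.13 (13 libraries) and that of Csf3r to S100a9 from 0.0476 to 3.46 (14 libraries).

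**Figure D2:**
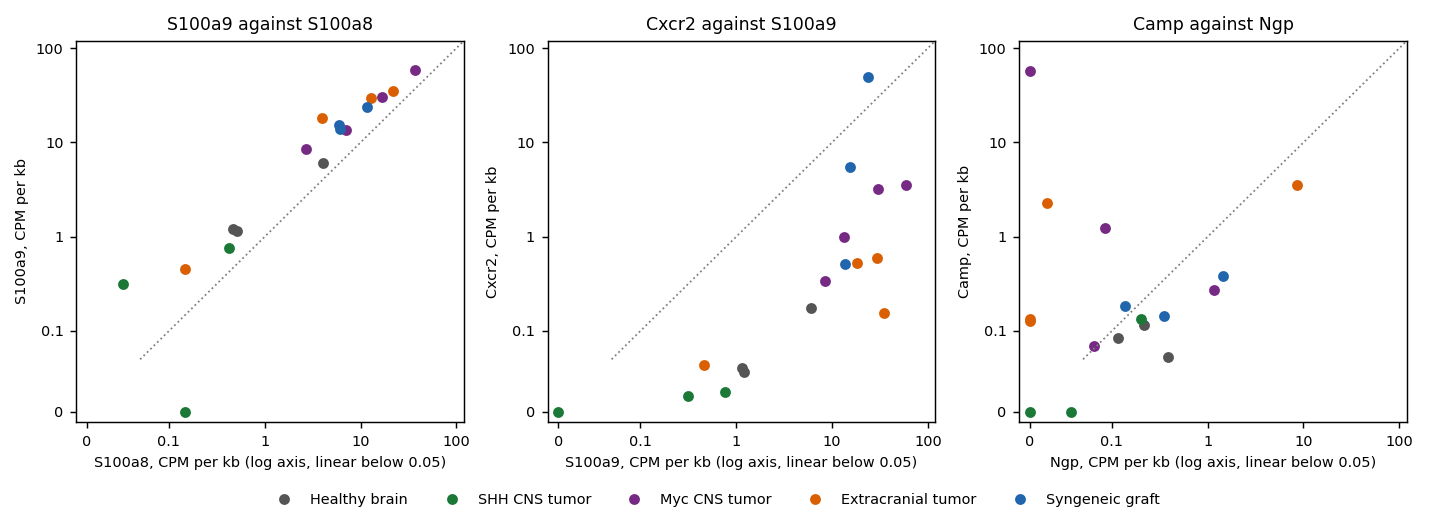
Level of S100a9 against S100a8, Cxcr2 against S100a9 and Camp against Ngp, in CPM per kilobase of exon on logarithmic axes that are linear below 0.05, with 1 point per library coloured by group and a dotted line at equal levels. The calprotectin pair runs above the line in the 14 libraries with at least 10 counts of each gene. Syngeneic graft 3 stands far above the other libraries for Cxcr2 at a similar S100a9. Camp and Ngp scatter, with Myc CNS tumor 1 at the top for Camp and at 0 for Ngp.

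Csf3r, the receptor for granulocyte colony-stimulating factor, was the gene of the set that rose in every tumor group. Csf3r (ENSMUSG00000028859.14, chr4:126024550-126044440, plus strand) measured 1.65, 1.57 and 1.06 CPM in the brains and 15.5, 7.94 and 9.48 CPM in the SHH tumors. It measured 26.2, 10.06, 31.3 and 25.9 CPM in the Myc tumors, 56.1, 31.7, 24.5 and 2.99 CPM in the extracranial tumors and 80.4, 66.1 and 74.7 CPM in the grafts. Every tumor lay above every brain and every graft above every other tumor, and Extracranial tumor 4 was the lowest tumor. Brain had the lowest mean, 1.43 ± 0.322 CPM (SD, n = 3), followed by SHH tumors with 10.97 ± 3.98 (n = 3), Myc tumors with 23.4 ± 9.20 (n = 4), extracranial tumors with 28.8 ± 21.9 (n = 4) and grafts with 73.7 ± 7.22 (n = 3).

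Against brain, the log2 fold change of Csf3r was 2.94 ± 0.72 in SHH tumors (edgeR adjusted p = 0.036), 4.03 ± 0.74 in Myc tumors (0.00052), 4.33 ± 0.75 in extracranial tumors (0.000329) and 5.69 ± 0.81 in grafts (7.25e-05). For the mean of the 4 tumor groups it was 4.25 ± 0.71 (adjusted p = 0.00019). Grafts were also higher than SHH tumors, by 2.75 ± 0.71 (adjusted p = 0.00609). The neighbours in this order did not pass when tested against each other: Myc against SHH tumors gave 1.09 ± 0.64 (0.183), extracranial against Myc tumors 0.30 ± 0.58 (0.84) and grafts against extracranial tumors 1.35 ± 0.62 (0.186). Limma's voom test called the first (1.58, adjusted p = 0.0325) and the last of these (1.88, 0.0225). The SHH call ended without any 1 of the brain or SHH libraries, without Syngeneic graft 1 or without Syngeneic graft 3 (adjusted p from 0.0508 to 0.156), and with both Healthy brain 1 and SHH CNS tumor 1 left out (2.72, 0.133). Without Extracranial tumor 4 the difference from SHH tumors passed in extracranial tumors (1.71, 0.00714) and Myc tumors (1.07, 0.0421), and grafts passed against Myc tumors (1.63, 0.0231).

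Csf3r is also transcribed in monocytes and macrophages, whose markers rose over the groups in the same order. The 13 macrophage and monocyte markers summed to between 100.9 and 145.4 CPM in brain, 371 and 419 for SHH, 1293 and 4057 for Myc tumors, 2385 and 6440 in extracranial tumors, and 6812 and 7864 in grafts. All 13 passed as higher than brain in Myc tumors, extracranial tumors and grafts, beside 25.3%, 26.1% and 24.9% of all genes. In SHH tumors 3 passed, beside 2.44% of all genes. None of the markers was at 0 throughout a group. Single tumors did not all follow this order. Extracranial tumor 4, with the lowest Csf3r of the tumors (2.99 CPM), held 2385 CPM of these markers. That was more than in any SHH tumor and in Myc CNS tumors 2 to 4 (2135, 1621 and 1293 CPM). The part of these markers in the Csf3r differences was not tested.

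Cxcr2, the receptor through which neutrophils follow the chemokines Cxcl1 and Cxcl2, had its highest level in a single graft. Cxcr2 (ENSMUSG00000026180.8, chr1:74153989-74161246, plus strand) measured 0.532, 0.116 and 0.127 CPM in the brains, 0, 0.047 and 0.0566 CPM in the SHH tumors and 1.04, 10.8, 9.77 and 3.03 CPM in the Myc tumors. It measured 1.61, 1.83, 0.477 and 0.136 CPM in the extracranial tumors and 16.6, 1.55 and 152.2 CPM in the grafts. Syngeneic graft 3 held 14580 counts of the gene, 9.19 times the CPM of the next tumor and 76.4% of the summed CPM of the 14 tumors, while its S100a8, S100a9 and Retnlg lay within the range of the Myc tumors. Every Myc tumor and every graft lay above every brain, and all 11 tumors outside the SHH group lay above all SHH tumors.

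Cxcr2 passed as higher than brain in Myc tumors, by 4.56 ± 1.45 on the log2 scale (edgeR adjusted p = 0.017), and in grafts, by 7.76 ± 1.70 (0.00168). It was higher than in SHH tumors by 7.28 ± 1.73 in Myc tumors (0.00469), 4.67 ± 1.58 in extracranial tumors (0.0312) and 10.48 ± 1.95 in grafts (0.000801), where the SHH group held 7 counts in all. Without Syngeneic graft 3 the graft values were 5.12 against brain (0.00887) and 7.85 against SHH tumors (0.00259). Extracranial tumors did not pass against brain (1.96 ± 1.29, adjusted p = 0.215). Grafts were higher than extracranial tumors by 5.81 ± 1.38 (0.0349), the only member called between these groups, and that difference was 3.16 (adjusted p = 0.182) without Syngeneic graft 3. It also ended without Healthy brain 3, Extracranial tumor 2, Extracranial tumor 3, Extracranial tumor 4, Syngeneic graft 1 or Syngeneic graft 2 (adjusted p from 0.05 to 0.0802). The Myc call against brain ended without Healthy brain 2 (0.0656) or Healthy brain 3 (0.0667), and the extracranial call against SHH tumors without any SHH tumor, Extracranial tumor 1 or Extracranial tumor 2 (0.0572 to 0.0977). Leaving out both Healthy brain 1 and SHH CNS tumor 1 ended the extracranial call against SHH tumors (4.21, 0.0991). The other Cxcr2 calls held there (adjusted p from 0.00522 to 0.0461). Limma's voom test gave adjusted p = 0.0593 for Myc against SHH tumors, 0.296 for extracranial against SHH tumors and 0.25 for grafts against extracranial tumors.

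Retnlg encodes a small secreted resistin-like protein of mature neutrophils. Retnlg (ENSMUSG00000022651.5, chr16:48872621-48874496, plus strand) measured 0.508, 0.0194 and 0.103 CPM in the brains and 0, 0 and 0.0566 CPM in the SHH tumors. It measured 0.601, 15.8, 4.58 and 0.329 CPM in the Myc tumors, 0.585, 1.52, 1.97 and 0.034 CPM in the extracranial tumors and 0.759, 0.608 and 1.82 CPM in the grafts. Myc CNS tumor 2 led, with 55.1% of the summed CPM of the 14 tumors, and Healthy brain 1 and Myc CNS tumor 4 kept brain and Myc libraries from separating. The gene was higher in Myc tumors than in brain by 4.64 ± 1.61 on the log2 scale (edgeR adjusted p = 0.0265), and higher than in SHH tumors by 7.66 ± 1.95 in Myc tumors (0.00684), 5.30 ± 1.79 in extracranial tumors (0.0303) and 5.35 ± 1.82 in grafts (0.0265). The SHH level rested on 5 counts, all in SHH CNS tumor 3.

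The Retnlg call against brain ended without Healthy brain 2 (adjusted p = 0.0843), Healthy brain 3 (0.0926) or Myc CNS tumor 2 (0.0768). The extracranial call against SHH tumors ended without SHH CNS tumor 1 (0.0942), SHH CNS tumor 2 (0.0955) or Extracranial tumor 3 (0.0511), and the graft call without SHH CNS tumor 1 (0.0808), SHH CNS tumor 2 (0.0811) or Syngeneic graft 3 (0.0656). Leaving out both Healthy brain 1 and SHH CNS tumor 1 ended the extracranial (4.89, 0.0872) and graft (4.93, 0.074) calls against SHH tumors. The Myc calls of Retnlg held there, against brain (6.36, 0.0255) and against SHH tumors (7.25, 0.0284). Relative to S100a8, the level of Retnlg per kilobase was between 0.0785 and 0.725 in 12 libraries with at least 10 counts of each, and Myc CNS tumor 2 was at the upper end.

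Mpo and Elane, the enzymes of the primary granules, had few counts in every library and did not pass the filter on low counts, so neither was tested. Mpo (ENSMUSG00000009350.13, chr11:87793581-87804413, plus strand) had 32, 7 and 7 counts in the brains, 4 in the SHH tumors together, 2 in the Myc tumors, 4 in the grafts and 20 in the extracranial tumors, all of them in Extracranial tumor 3. The gene overlaps the antisense gene Gm11505, and the strand setting of the counting is unknown here, so reads of the pair cannot be told apart. Elane (ENSMUSG00000020125.7, chr10:79886247-79888215, plus strand) had 2 counts in the brains and 0 in the SHH tumors, which allows up to 0.0177 CPM for that group, taken as 3 counts. It had 7 counts in the Myc tumors, 14 in the extracranial tumors and 16 in the grafts, with 12 of them in Extracranial tumor 3 and 11 in Syngeneic graft 3. Their highest levels were 0.596 CPM for Mpo and 0.358 CPM for Elane, both in Extracranial tumor 3.

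Ngp, Camp and Ltf encode proteins of the later granules: neutrophilic granule protein, the precursor of the antimicrobial peptide cathelicidin, and the iron-binding protein lactoferrin. They lie on chromosome 9 in the order Camp, Ngp, Ltf, with 570129 bases between Camp and Ngp and 596258 between Ngp and Ltf. Their upstream sequence is shown because these neighbours reached their highest levels in different tumors. It comes from the same RefSeq windows, with the same motifs in capitals.
Camp (chr9:109849618-109849706, minus strand): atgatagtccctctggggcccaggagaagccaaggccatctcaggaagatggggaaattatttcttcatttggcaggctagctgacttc
Ngp (chr9:110419558-110419746, plus strand): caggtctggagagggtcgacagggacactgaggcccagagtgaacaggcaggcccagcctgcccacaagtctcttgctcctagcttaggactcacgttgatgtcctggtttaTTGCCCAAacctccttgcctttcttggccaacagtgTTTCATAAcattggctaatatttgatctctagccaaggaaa
Ltf (chr9:111019042-111019270, plus strand): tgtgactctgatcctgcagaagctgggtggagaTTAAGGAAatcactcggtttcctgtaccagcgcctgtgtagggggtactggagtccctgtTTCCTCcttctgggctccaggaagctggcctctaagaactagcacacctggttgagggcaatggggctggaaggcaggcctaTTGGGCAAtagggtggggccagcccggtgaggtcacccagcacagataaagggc
Over the whole windows, Ngp held 3 matches to TTNNGNAA and none to GAGGAA, Ltf 2 and 1, and Camp none of either. That no match was found says only that these letters are not in the window.

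Ngp (ENSMUSG00000032484.8, chr9:110419747-110423012, plus strand) measured 0.468, 0.262 and 0.143 CPM in the brains, 0, 0.047 and 0.249 CPM in the SHH tumors and 0, 1.41, 0.0785 and 0.105 CPM in the Myc tumors. It measured 0, 0.0195, 10.46 and 0 CPM in the extracranial tumors and 0.169, 0.424 and 1.76 CPM in the grafts. Extracranial tumor 3 alone held 351 of the 617 counts of the 14 tumors and 71.1% of their summed CPM, and every pair of groups overlapped. Ngp passed in none of the 11 comparisons. Its largest log2 fold change was 4.59 ± 2.29, between extracranial and SHH tumors (edgeR adjusted p = 0.127).

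Ltf (ENSMUSG00000032496.7, chr9:111019271-111042767, plus strand) measured 0.302, 0.223 and 0.143 CPM in the brains, 0.0258, 0 and 0.0566 CPM in the SHH tumors and 1.04, 0.156, 0.0349 and 0.179 CPM in the Myc tumors. It measured 0.0975, 0, 6.53 and 0 CPM in the extracranial tumors and 0.169, 2.08 and 3.52 CPM in the grafts. Extracranial tumor 3 was the highest library, followed by Syngeneic graft 3 and Syngeneic graft 2. All SHH tumors lay below all brains and all grafts. Grafts were higher than SHH tumors by 5.87 ± 2.27 on the log2 scale (edgeR adjusted p = 0.0469), against 6 counts in the SHH group. That call ended without any 1 of the 3 brains or the 3 SHH tumors, Myc CNS tumor 2, Myc CNS tumor 4, Syngeneic graft 2 or Syngeneic graft 3 (adjusted p from 0.0535 to 0.126). It also ended with both Healthy brain 1 and SHH CNS tumor 1 left out (5.79, 0.134).

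Camp (ENSMUSG00000038357.10, chr9:109847379-109849617, minus strand) followed another pattern. It measured 0.0397, 0.0873 and 0.0636 CPM in the brains and 0, 0 and 0.102 CPM in the SHH tumors. In Myc tumors it measured 43.0, 0.209, 0.0524 and 0.941 CPM, in extracranial tumors 0.0975, 1.73, 2.68 and 0.102 CPM, and in grafts 0.141, 0.111 and 0.292 CPM. Myc CNS tumor 1 held 786 counts of Camp, 16 times the CPM of the next tumor and 86.9% of the summed CPM. Extracranial tumors 1 and 4 held 2 and 3 counts, at or below the limit set by 3 counts, so their order against the brains was not measurable. The differences of extracranial tumors and grafts from brain did not pass, at 4.16 ± 1.99 on the log2 scale (edgeR adjusted p = 0.0929) and 1.51 ± 1.89 (0.512).

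The other granule genes did not share the level of Camp in that tumor. Myc CNS tumor 1 had 0 counts of Ngp, which allows up to 0.164 CPM, 0 counts of Elane, 1 count of Mpo and 1.04 CPM of Ltf, and its S100a8 and S100a9 were the lowest of the Myc group. Camp was called higher in Myc tumors than in brain (7.40 ± 2.32 on the log2 scale, edgeR adjusted p = 0.0159) and than in SHH tumors (8.0 ± 2.42, 0.0171). Without Myc CNS tumor 1 these values were 2.67 (0.119) and 3.21 (0.099). The call against brain also ended without any 1 of the brains (0.0509 to 0.0573), and the call against SHH tumors without SHH CNS tumor 1 (0.0619) or SHH CNS tumor 2 (0.0611). With Healthy brain 1 and SHH CNS tumor 1 both left out neither held (0.0614 and 0.0745). Myc CNS tumor 1 also held 192.4 CPM of pituitary markers, against 0.521 to 1.34 in the other Myc tumors, and 76.1 CPM of skeletal muscle markers, against 5.09 to 29.4, and their part in its Camp level was not tested.

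**Figure D3:**
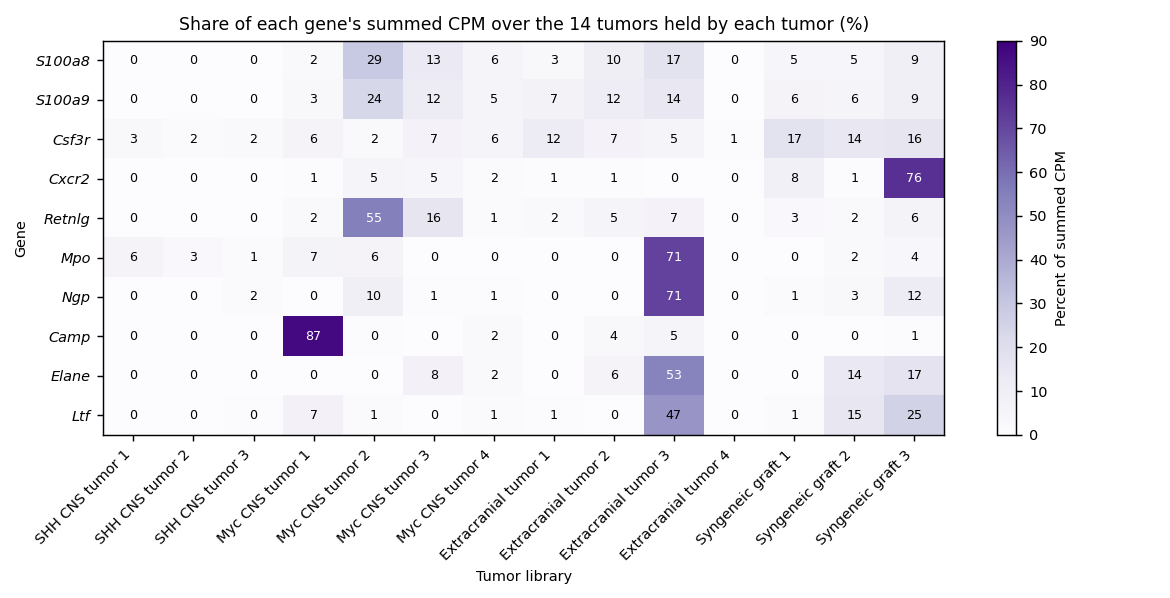
Share of each gene's summed CPM over the 14 tumors that each tumor holds, in percent, with genes as rows, tumors as columns and darker cells for larger shares. Camp sits in Myc CNS tumor 1 (86.9%), Cxcr2 in Syngeneic graft 3 (76.4%) and Mpo and Ngp in Extracranial tumor 3 (71.1% each), whereas no tumor holds more than 29.1% of S100a8 or 17.4% of Csf3r.

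Extracranial tumor 3 was among the 3 highest of the 14 tumors for 8 of the 10 genes and led for Mpo, Ngp, Elane and Ltf. Myc CNS tumor 2 was among the 3 highest for 6 genes and led for S100a8, S100a9 and Retnlg, and Syngeneic graft 3 was among them for 5 genes and led for Cxcr2. No SHH tumor was among the 3 highest for any gene. At the other end, Extracranial tumor 4 had the lowest Csf3r of all tumors and the lowest S100a8, S100a9, Cxcr2 and Retnlg of its group. Its bone list summed to 15440 CPM against 163 to 815 in the other extracranial tumors. That sum was mainly the osteoclast genes Ctsk and Acp5, with group means of 2111 ± 3950 and 1968 ± 3622 CPM (SD, n = 4). The group means of Sp7, Dmp1, Mmp13, Ibsp and Bglap were 49.0, 31.7, 22.3, 1.16 and 0.159 CPM. The part of these genes in the low levels was not tested. In Extracranial tumor 3 the 7 erythroid markers summed to 9.51 CPM, within the 5.78 to 32.5 CPM of the other 3. There 6 markers of mast cells and basophils summed to 3.16 CPM against 0.068 to 0.488, and 6 of B cell precursors to 3.79 against 1.02 to 2.78. Neither sum was particular to this tumor. The mast cell and basophil sum was 3.22 CPM in Myc CNS tumor 1 and 4.25 in Healthy brain 1. The B cell precursor sum was 4.97 CPM in SHH CNS tumor 1 and 7.40 in SHH CNS tumor 3. The part of these markers in the granule transcripts of Extracranial tumor 3 was not tested.

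Among the genes per unit of length, the ranking differed between groups. In Myc tumors S100a9 was the highest at 27.7 ± 22.6 CPM per kilobase (SD, n = 4), followed by S100a8 at 15.8 ± 15.1, Camp at 14.6 ± 28.1, Retnlg at 8.98 ± 12.2 and Csf3r at 6.47 ± 2.55. In grafts Csf3r was the highest at 20.4 ± 2.0 (n = 3), with Cxcr2 at 18.6 ± 27.2 and S100a9 at 17.6 ± 5.20. The place of Cxcr2 rested on Syngeneic graft 3, at 49.9 CPM per kilobase against 5.44 and 0.508 in the other grafts, and that of Camp on Myc CNS tumor 1, at 56.7 against 0.0691 to 1.24 in the other Myc tumors. In SHH tumors Csf3r stood at 3.04 ± 1.10 (n = 3), and S100a9, the next, at 0.358 ± 0.381. These SDs describe the spread between tumors, not the separation of genes measured in the same libraries. Within each Myc tumor S100a9 was above S100a8, at 8.48 against 2.68, 58.5 against 36.7, 30.2 against 16.7 and 13.45 against 7.06 CPM per kilobase. Whether the other neighbours were separated was not tested.

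**Figure D4:**
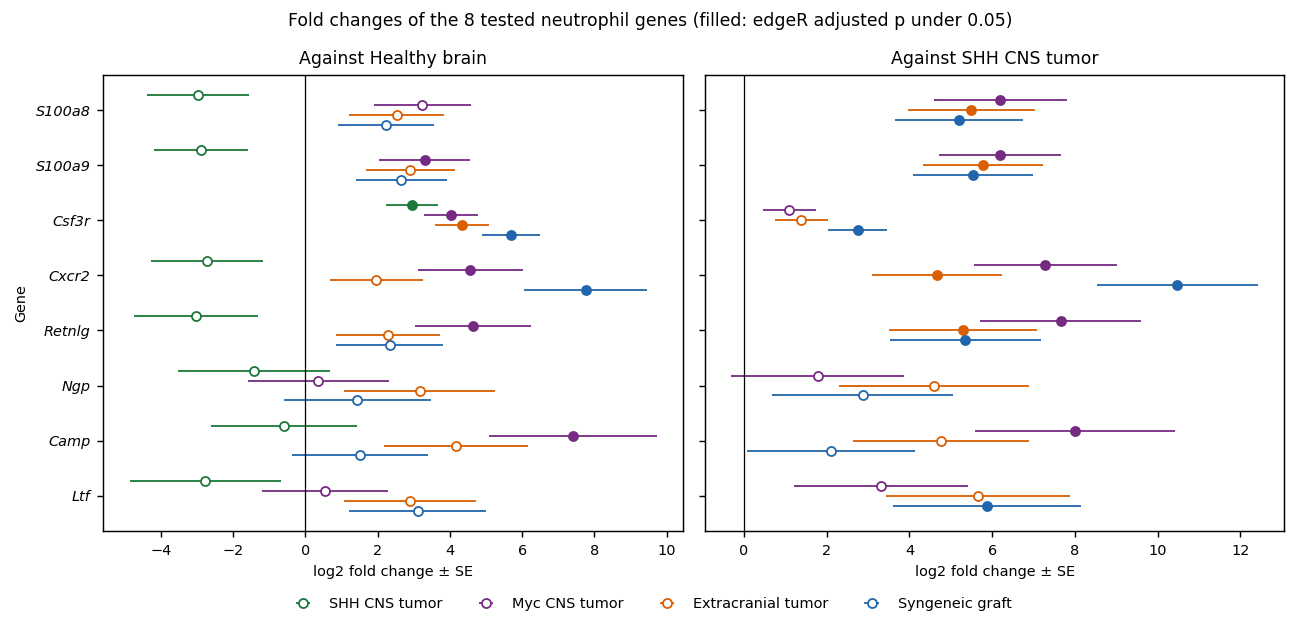
Log2 fold change of the 8 tested neutrophil genes against healthy brain (left) and against SHH tumors (right), from the edgeR fit, with 1 point per tumor group, bars of 1 SE and filled points at adjusted p under 0.05. Csf3r is filled in all 4 groups against brain, and 5 genes are filled in Myc tumors on both sides, while SHH tumors lie left of 0 for every gene but Csf3r.

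Counted over the comparisons, 8 of the 10 genes could be tested and none was called lower in any of the 11 by edgeR, DESeq2 or voom. At an unadjusted edgeR threshold of 0.05 there were 3 lower values: Camp in grafts against Myc tumors (0.016), S100a9 in SHH tumors against brain (0.0425) and Cxcr2 in extracranial against Myc tumors (0.0434). Of all genes, those called lower than in brain were 29.8% over all tumors, 1.94% in SHH tumors, 26.8% in Myc tumors, 26.1% in extracranial tumors and 30.4% in grafts. Against SHH tumors they were 21.9% in Myc tumors, 19.7% in extracranial tumors and 25.8% in grafts. Between the other groups they were 0.0186% in extracranial and 2.88% in graft against Myc comparisons, and 2.62% in grafts against extracranial tumors. In Myc tumors 5 genes were called higher than in brain (Csf3r, Cxcr2, Retnlg, Camp and S100a9), where 25.3% of all genes tested were called higher, and the median log2 fold change of the 8 was 3.67 against -0.01 over all genes. In grafts 2 were called (Csf3r and Cxcr2, background 24.9%, median 2.49 against -0.16), in extracranial tumors 1 (Csf3r, background 26.1%, median 2.90 against 0.05) and over all tumors 1 (Csf3r, background 23.6%, median 1.52 against -0.04). The last 3 counts lay near or below what the background gives. In SHH tumors 1 gene was called higher than brain (Csf3r, background 2.44%), and the median of the 8 was -2.74 against -0.02. Here 4 genes had every SHH tumor below every brain (Cxcr2, S100a8, S100a9 and Ltf), as did 20.7% of all genes. Every library lay above every brain for 3 genes in Myc tumors (25.2% of all genes), 2 in extracranial tumors (Csf3r and, on the few counts described, Camp, beside 24.8%) and 6 in grafts (34.5%). Leaving out Healthy brain 1 and SHH CNS tumor 1, the genes called numbered 5 in Myc tumors, 3 in grafts, 2 in extracranial tumors, 1 over all tumors and 0 in SHH tumors. The medians of the 8 then were 4.77, 3.94, 3.95, 3.02 and -0.96 on the log2 scale. The shares of all genes called in that smaller fit are not given here, so these counts have no background beside them. Camp, at a brain mean of 0.0635 CPM, entered the test through tumor groups alone.

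Against SHH tumors, 5 genes were called higher in Myc tumors (S100a8, S100a9, Cxcr2, Retnlg and Camp, background 19.0%), 4 in extracranial tumors (S100a8, S100a9, Cxcr2 and Retnlg, background 18.6%) and 6 in grafts (the same 4 with Csf3r and Ltf, background 20.4%). The medians of the 8 were 6.20, 5.03 and 5.27 on the log2 scale, against 0.00, 0.07 and -0.14 over all genes. Cxcr2, Retnlg, Ltf and Camp, at SHH means of 0.0345, 0.0189, 0.0274 and 0.034 CPM, passed the filter on low counts through other groups. Mpo and Elane, low throughout, did not pass it, so positive medians against SHH tumors were favoured in advance. Every library lay above every SHH tumor for 4, 1 and 7 genes, against 19.8%, 18.2% and 29.6% of all genes. These comparisons share the SHH libraries. Without SHH CNS tumor 1 and Healthy brain 1 the counts called were 4, 2 and 4, with no background given for that fit. Between the 3 groups with higher levels little was called: 0 genes between extracranial and Myc tumors (background 0.0%), 0 between grafts and Myc tumors (background 3.12%) and 1, Cxcr2, between grafts and extracranial tumors (background 2.16%). In that last pair Csf3r was past the unadjusted threshold (0.0453), and voom called Csf3r (1.88, adjusted p = 0.0225) and not Cxcr2. Between extracranial and Myc tumors Cxcr2 was the 1 gene past the unadjusted threshold, and DESeq2 and voom called 0. Between grafts and Myc tumors Csf3r (0.0179) and Cxcr2 (0.0207) were past it as higher and Camp as lower, 3 in all. There DESeq2 called Cxcr2 (3.18, adjusted p = 0.0386) and voom called Csf3r (1.48, 0.0191).

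Other transcripts of mature neutrophils formed a list of 20 genes, of which 19 were tested. In Myc tumors 13 were called higher than brain (25.3% of all genes), in extracranial tumors 11 (26.1%) and in grafts 10 (24.9%). In SHH tumors the gene called was Ltb4r1, a leukotriene receptor, which was lower by 2.17 on the log2 scale (edgeR adjusted p = 0.0271). Leaving out Healthy brain 1 and SHH CNS tumor 1, 0 of the list were called lower there by edgeR and 1 higher. The background of that fit is not given. In grafts, Wfdc17 rose by 9.81 ± 1.39 on the log2 scale (edgeR adjusted p = 6.91e-05) and Acod1, which makes itaconate, by 9.14 ± 1.48 (0.000185). In Myc tumors Wfdc17 rose by 7.10 ± 1.24 (0.00037) and Trem3 by 5.45 ± 1.03 (0.000652). Ly6g, the surface protein by which mouse neutrophils are recognized, was called higher than brain in Myc tumors (4.23 ± 1.01, adjusted p = 0.00329), grafts (4.15 ± 1.03, 0.00388) and extracranial tumors (2.96 ± 1.05, 0.0282), but its means were only 0.18, 0.183 and 0.0788 CPM. Ly6g was named for its role after its values were seen. Several genes of this list, such as Acod1, Clec4e and Wfdc17, are also transcribed by macrophages.

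Of 16 growth factors, attractants and receptors that act on neutrophils, 14 were tested, and 8 were called higher than brain in Myc tumors, 10 in extracranial tumors and 9 in grafts, beside 25.3%, 26.1% and 24.9% of all genes. Csf3, which encodes granulocyte colony-stimulating factor, the ligand of Csf3r, had a mean of 0.0303 ± 0.0293 CPM (SD, n = 3) for brain and 0.0229 ± 0.0226 (n = 3) for SHH tumors, against 2.42 ± 1.15 (n = 4) for Myc tumors, 1.71 ± 1.73 (n = 4) for extracranial tumors and 32.7 ± 12.7 (n = 3) for grafts. Each graft, at 30.1, 46.5 and 21.5 CPM, lay above every other library. Csf3 was higher in grafts than in brain by 9.97 ± 1.27 (edgeR adjusted p = 3.01e-05), than in Myc tumors by 3.76 ± 0.85 (0.0257) and than in extracranial tumors by 4.27 ± 0.87 (0.023).

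Cxcl1 and Cxcl2, ligands of Cxcr2, were lower in Syngeneic graft 3 than in any Myc tumor. Cxcl2 measured 30.0, 169.3, 45.4 and 14.1 CPM in Myc tumors, 15.4, 40.8, 0.715 and 1.36 CPM in extracranial tumors and 3.46, 9.40 and 0.365 CPM in grafts. Cxcl1 measured 3.28, 53.4, 37.9 and 12.7 CPM, then 22.2, 99.98, 0.477 and 2.89 CPM, then 4.5, 6.41 and 0.219 CPM in the same libraries. Syngeneic graft 3, the library with the most Cxcr2, had the least Cxcl1 and Cxcl2 of the 11 tumors outside the SHH group, and Myc CNS tumor 2, which led for S100a8 and S100a9, had the most Cxcl2. Against brain, Cxcl2 was higher by 8.76 ± 1.98 in Myc tumors (edgeR adjusted p = 0.0023), 6.61 ± 1.80 in extracranial tumors (0.00735) and 4.88 ± 1.69 in grafts (0.0243). These ligands were named for their receptor after their values were seen.

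Of the 7 genes that encode subunits of the phagocyte oxidase or receptors of calprotectin, 4 were called higher than brain in SHH tumors (2.44% of all genes), Cybb among them, and 6, all but Ager, in each of the other groups. Leaving out Healthy brain 1 and SHH CNS tumor 1, the SHH count was 1, with no background given for that fit. Cybb, the catalytic subunit, was at 1.31 ± 0.136 CPM (n = 3) in brain and 484.5 ± 69.0 (n = 3) in grafts, a log2 fold change of 8.53 ± 0.93 (edgeR adjusted p = 9.56e-06). These genes are shared with macrophages. Among other granule genes, of 7 tested later granule genes, 1 was called higher than brain in Myc tumors (Chil3), 3 in extracranial tumors (Chil3, Mmp9 and Padi4) and 2 in grafts (Padi4 and Chil3). Those counts are near the 25.3%, 26.1% and 24.9% of all genes. Extracranial tumor 4 was the library with 15440 CPM of bone markers, mainly Ctsk and Acp5. Without it Mmp9 moved from 6.22 ± 1.95 (edgeR adjusted p = 0.0157) to 2.97 ± 1.33 (0.0791). Of 6 early granule genes 2 were tested. Gfi1, a transcription factor of the neutrophil lineage, was higher than in brain by 4.06 ± 0.71 in Myc tumors (0.000379), 2.51 ± 0.67 in extracranial tumors (0.00673) and 5.47 ± 0.77 in grafts (6.28e-05), while Prtn3, the proteinase 3 gene, changed by -3.80 ± 0.80 in Myc tumors (0.0014) and -2.54 ± 0.75 in extracranial tumors (0.0118). Ms4a3 and Fcnb, like Mpo and Elane transcripts of precursors, stayed at or below 0.149 CPM in every library. They do not stand for the whole list. Prtn3 had means of 2.95 ± 0.614 CPM (SD, n = 3) in brain and 2.60 ± 1.52 (n = 3) in SHH tumors. Ctsg was high in Myc CNS tumor 3, as given under other observations, and Cebpe was not tested.

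The genes most like S100a8 over the 14 tumors were taken from 14475 genes by Pearson's r of log2(CPM + 1), which is given as a description, since these libraries also share depth and composition. They were Lamb1 (0.891), Kars (0.879), Psma5 (0.879), Dnttip2 (0.876) and Mmp8 (0.875), of which Mmp8 encodes the neutrophil collagenase. Within the set, S100a9 was at 0.971 and Retnlg at 0.862, Cxcr2 at 0.592 and Csf3r at 0.458, and Camp at 0.091. The genes most like Ngp were Eif4enif1 (0.949), Mbd1 (0.92), Zfp212 (0.917), Dtwd2 (0.906) and Nsmce4a (0.898), and within the set Elane was at 0.901, Mpo at 0.894 and Ltf at 0.822. The likeness to Ngp leaned on Extracranial tumor 3: without it Mbd1 was at 0.591, Elane at 0.531 and Mpo at 0.383, whereas Zfp212 was at 0.931. Mbd1 measured 594 CPM in that tumor and at most 83.4 CPM in the other 13.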

How the data were processed

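RNA was measured in 17 libraries made with the TruSeq Stranded mRNA kit from DNase-treated total RNA, per the labels' protocols. STAR 2.5.3a and the build mm10 are named in the submitters' processing notes. Each library has a deposited table of raw counts by gene, whole numbers without normalization by the authors. The counting tool, strand setting and annotation are not given in the sources used here. Of 50600 Ensembl IDs, 45737 matched GENCODE M21 (GRCm38) with their version and 50376 without it, which gave symbols, positions and exon lengths.

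The genes and all lists were chosen with earlier results of these data known. Groups came from the labels. Total counts were between 18685672 and 130835711, and the number of counts limits the precision of low genes. Replicate libraries differed by a chi-square per gene of at least 65.3, far beyond sampling noise. All 11 comparisons are contrasts of 1 edgeR 4.0.16 quasi-likelihood fit (R 4.3.3, TMM factors, filterByExpr with a minimum count of 10) over 17 libraries and 21494 genes, with Benjamini-Hochberg adjustment and a threshold of 0.05. The comparison of all tumors uses the unweighted mean of the 4 group means. The procedure was tested on simulated data with the same dispersion for every gene. That run does not measure its behaviour for genes with a single high library or near-0 counts in a group.

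Named genes are the 10 members, Smarcb1, up to 4 genes per list with the smallest adjusted p, and the 5 genes most like S100a8 and Ngp over the 14 tumors, among genes with at least 1 CPM in 3 tumors. Genes named outside this rule are marked as such. Some genes that the rule would name are not reported here. A level of 0 is given with the limit set by 3 counts. Alternatives were DESeq2 1.42.0, limma 3.58.1 voom with quality weights, RLE size factors, a minimum count of 50, every gene with a count, a fit of the compared groups only, all 14 tumors pooled, each library left out, a block by library number, and Healthy brain 1 with SHH CNS tumor 1 left out. Promoter windows of 300 bases (250 before and 50 after the start) came from RefSeq on GRCm38.p6, where all 10 genes matched, and parts that lie in an exon are not printed.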

Additional observations from a re-analysis of the deposited data

Results flagged for a closer look

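In the groups of 4 tumors, 7 of 20 gene and group combinations had a highest library set apart from the other 3 by a gap that, as a share of the whole range, passed Dixon's 95% critical value. Chance gives about 1 in 20 groups for normally distributed values, and the rate for skewed low counts such as these, where a gene with counts in 1 library always passes, was not measured. The extracranial group gave 4 of them, all with Extracranial tumor 3 on top: Mpo at 0.596 CPM, Ngp at 10.46 CPM, Elane at 0.358 CPM and Ltf at 6.53 CPM. The others came from Myc tumors: Camp in Myc CNS tumor 1 at 42.96 CPM, Ltf in the same tumor at 1.04 CPM and Ngp in Myc CNS tumor 2 at 1.41 CPM. The 4 genes of Extracranial tumor 3 are measured in 1 library and are not independent of each other. Groups of 3 libraries were not tested in this way, so Cxcr2 in Syngeneic graft 3, at 152.2 CPM against 16.6 and 1.55 in the other grafts, is not among them.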

How the results depend on the processing

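Of the 26 called results of single genes, none of the 646 values under the alternatives reversed, 570 kept the call and 76 lost it; of 1519 values of results that were not called, 45 passed. The calls that held under every alternative were Csf3r in all tumors, Myc tumors, extracranial tumors and grafts against brain and in grafts against SHH tumors, Cxcr2 in grafts against brain and SHH tumors, S100a8 and Retnlg in Myc against SHH tumors, and S100a9 in Myc tumors and grafts against SHH tumors. Counts of neutrophil genes called higher that moved by more than 1.5 times were as follows, and smaller moves are not listed. The share of all genes called under each alternative is not given here. A change in these genes is therefore not separated from a general change in the number of calls. With DESeq2 it was 2 in all tumors against brain, 2 in extracranial tumors against brain and 1 in grafts against Myc tumors. With voom it was 4 in all tumors, 3 in extracranial tumors and 5 in grafts against brain, and 1 in grafts against Myc tumors. With the compared groups only it was 5 in grafts against brain, 2 in extracranial against SHH tumors (of 5 genes that could be tested), 1 in grafts against Myc tumors and 0 in grafts against extracranial tumors. With every gene that had a count it was 0 in grafts against extracranial tumors. Without Healthy brain 1 and SHH CNS tumor 1 it was 0 in SHH tumors and 2 in extracranial tumors against brain, and 2 in extracranial against SHH tumors. The cause of these changes was not tested. Leaving out 1 library at a time, the counts against brain were 1 to 2 (all tumors), 0 to 1 (SHH), 1 to 6 (Myc), 1 to 3 (extracranial) and 2 to 3 (grafts), and those against SHH tumors 4 to 6 (Myc), 1 to 6 (extracranial) and 3 to 6 (grafts). Ranges were 0 to 0 between extracranial and Myc tumors and 0 to 1 in grafts against Myc and against extracranial tumors. The library numbers did not pair the samples: deviations of same-numbered libraries correlated between -0.174 and 0.135 (median 0.007, 31 pairs), those of other numbers between -0.149 and 0.182 (84 pairs). With the replicate block the count fell to 0 in grafts against extracranial tumors, where Cxcr2 had an adjusted p of 0.0997, and to 5 in grafts against SHH tumors, where Ltf had 0.0517. The block changed no other count of calls. Levels in SHH tumors rest on 42 counts or fewer per gene except Csf3r, so folds against them are imprecise and low levels there may be undetected.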

Other observations

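Other genes of the neutrophil lists were also high in 1 tumor, and they were named after their values were seen. Pglyrp1, a bactericidal protein of neutrophil granules, measured 172.3 CPM in Extracranial tumor 3 and between 0.374 and 6.26 CPM in the other 13 tumors, with 4.71 to 7.65 CPM in brain. Mmp9, the gelatinase that neutrophils store and osteoclasts secrete, measured 12270 CPM in Extracranial tumor 4. There bone markers, mainly Ctsk and Acp5, summed to 15440 CPM and S100a8 was at 0.102 CPM. Il1r2, a decoy receptor for interleukin 1, measured 65.5 CPM in Myc CNS tumor 2, the library with the most S100a8, and at most 10.4 CPM in the other tumors. Ctsg, the cathepsin G gene of primary granules, measured 4.43 CPM in Myc CNS tumor 3 and at most 0.164 CPM in every other library.

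Eosinophil markers, which could share a tumor with neutrophils, summed to between 16.4 and 101.4 CPM in grafts and 4.44 and 55.3 CPM in extracranial tumors, against 0.506 to 1.78 CPM in Myc tumors, 0.259 to 2.32 CPM in SHH tumors and 0.563 to 1.22 CPM in brain. Their highest sum, 101.4 CPM, was in Syngeneic graft 2, which had the lowest Cxcr2 of the grafts. The list did not move as 1: in grafts Ear2 (47.7 ± 44.9 CPM, SD), Ccr3 and Siglecf were called higher than brain. Epx was at 0 in every graft, which allows up to 0.0162 CPM for that group, and was called lower (-8.15 ± 2.24 on the log2 scale, edgeR adjusted p = 0.00861). In the extracranial group the 55.3 CPM came from Extracranial tumor 4, against 4.44 to 6.42 CPM in the others. That sum was mainly Ccr3, whose group mean was 14.4 ± 26.7 CPM (SD, n = 4). Ear2 was at 2.83 ± 2.34 CPM, Siglecf at 0.321 ± 0.178 and Epx at 0.0671 ± 0.134, so the list did not rise as a set there.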
